A study of Sus scrofa with 6 samples.

Results

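CDH11, FAP, PTN, SFRP1, ADAMDEC1 and A2M, 6 genes grouped under the heading of stromal signals and adhesion, are described here across 3 stages of porcine ovarian follicle. That heading does not say which cells express them here. They were chosen by gene symbol, as all probe sets (groups of array probes for a transcript) whose platform annotation gives only that symbol. This found 12 probe sets for these 6 genes, of 6765 genes named in this way and 23999 probe sets in all. A seventh gene of the set, PDGFRA, the alpha receptor for platelet-derived growth factor, has no probe set with its symbol in the annotation used and was not analysed here. The genes were picked with their stage differences in these data already known, so their levels and differences are given as a description, and calls counted for them below support nothing.

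RNA came from ovarian follicles of prepubertal gilts (female pigs before puberty), isolated by morphology and diameter, and was hybridised to Affymetrix porcine arrays. The 6 arrays fall into follicles titled primordial, middle stage and last stage, with 2 arrays titled as biological replicates in each, and the study aimed at a general picture of expression through follicle growth. The labels give no breed, treatment or diameter, and do not say whether replicates came from separate animals or from pools, so the spread between replicates may be partly technical. A separate description on all 6 samples calls them primordial, so the stages rest on the titles.

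Most oocyte transcripts were far lower in the stage titled primordial than in the middle stage. DPPA5 and PADI6, among the dimmest of 11 oocyte genes, had signals of 4.9 and 6.3 and of 3.2 and 3.3 there, and GDF9, a growth factor of the oocyte, had 137.3 and 150.6. The summed signal of 11 oocyte genes was 1345.3 and 2362.4 in that stage, 18103.8 and 19744.6 in the middle stage and 1697.0 and 1819.1 in the last stage. KIT, which other cells also express, made up most of the first of these sums with 891.6 and 1887.3, and was lower in the middle stage at 170.0 and 254.9. The stage titled primordial is called the stage labelled primordial below. The median signal per array ranged from 119.3 to 169.9, and the small number of arrays limits the precision.

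A growing follicle consists of an oocyte and granulosa cells inside a basement membrane, and the theca, a layer of steroid-making cells, vessels and fibroblast-like cells, forms around it from the ovarian stroma. Stromal cells hold together through cadherins, remodel the matrix with membrane and secreted proteases, and signal through secreted growth factors and secreted antagonists of Wnt ligands. CDH11 and FAP act at the cell surface, whereas PTN, SFRP1, ADAMDEC1 and A2M are secreted.

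On their brightest probe sets, all 6 genes were far lower in the stage labelled primordial than in the middle and last stages. CDH11, FAP, PTN and SFRP1 were below the median signal of the arrays there, A2M was above it and ADAMDEC1 was above it on 1 of the 2 arrays. On the brightest probe set of each gene, the mean signal was 5.83 to 51.2 times as high in the middle stage as in the stage labelled primordial, and 26.1 to 71.2 times as high in the last stage. On these probe sets the genes separate by what came after the middle stage. CDH11, FAP and PTN had last-stage levels close to the middle stage, while SFRP1, ADAMDEC1 and A2M were higher again. In RNA of whole follicles, more cells of a type and more RNA per cell cannot be told apart.

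**Figure D1:**
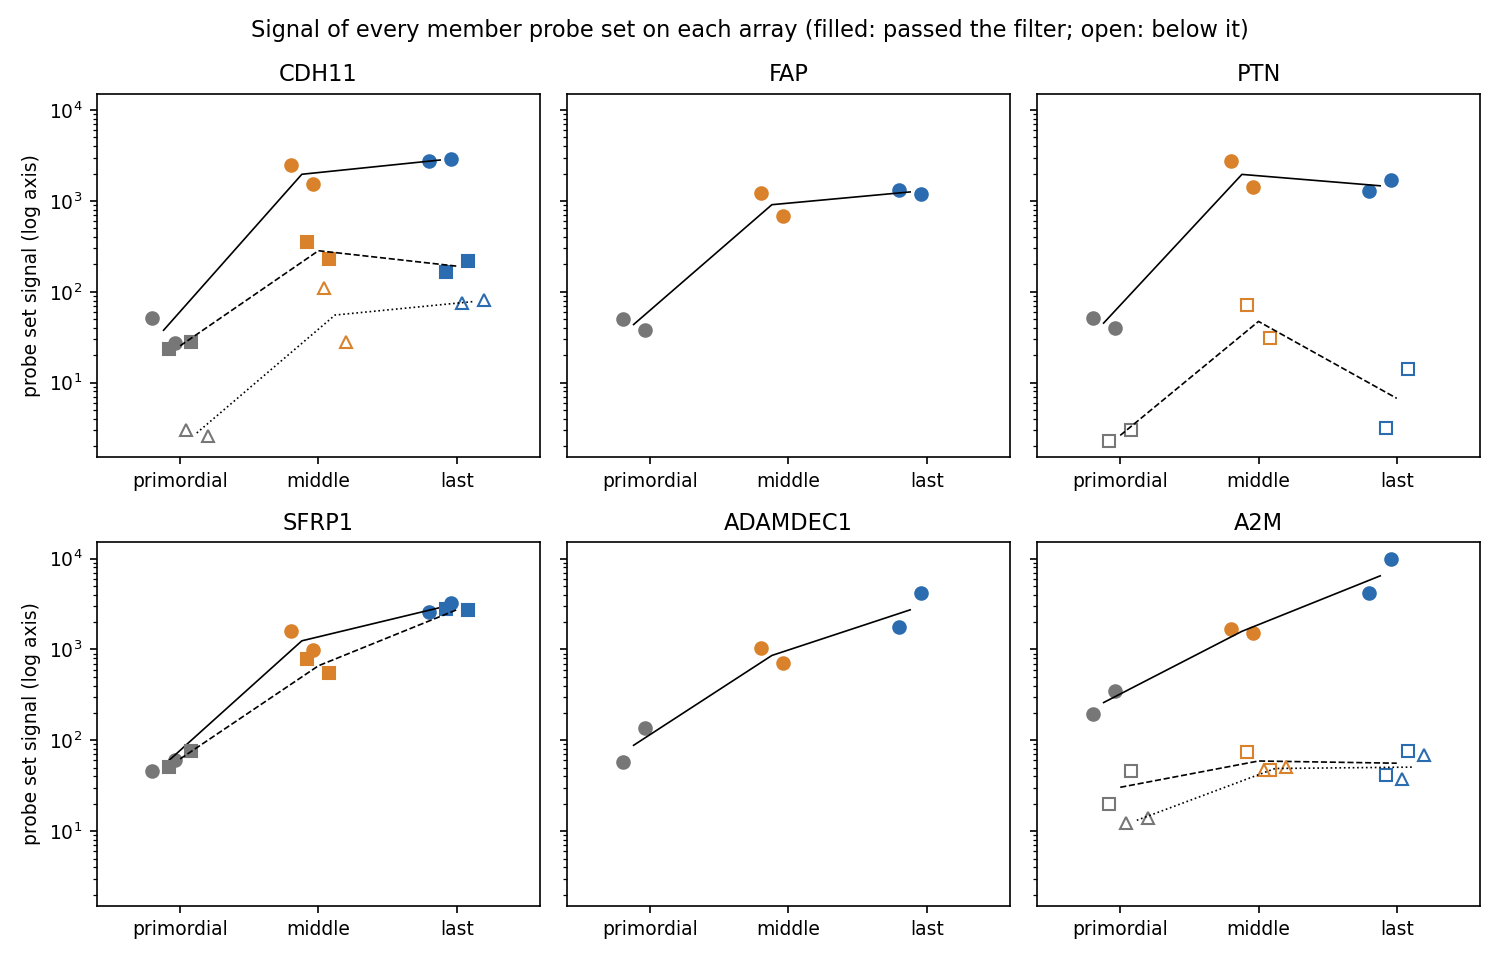
Signal of each of the 12 probe sets on each of the 6 arrays, on a log axis, with 1 panel per gene and the stages from left to right. Circles, squares and triangles are different probe sets of a gene, filled where the probe set passed the filter on low signals and open where it did not, and lines join the geometric means of the 2 arrays of a stage. The filled circles are lowest in the stage labelled primordial in every panel, and those of CDH11, FAP and PTN level off after the middle stage. The open squares of PTN fall after the middle stage.

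CDH11 is a cadherin of mesenchymal cells that joins neighbouring cells through calcium-dependent contacts. Its brightest probe set had signals of 51.8 and 27.5 in the stage labelled primordial, 2516.0 and 1540.6 in the middle stage and 2777.8 and 2872.2 in the last stage. Both last arrays were above both middle arrays, which were far above both arrays labelled primordial. Differences below are on the scale log2(signal + 16), ± the standard error (SE) of a linear model over all probe sets with n = 2 arrays per stage, and this scale understates the change of dim transcripts. On it, CDH11 was higher in the middle stage than in the stage labelled primordial by 5.19 ± 0.29, and higher in the last stage than in the middle stage by 0.52 ± 0.29. The last stage exceeded the stage labelled primordial by 5.71 ± 0.29, a fold of 52.3, which ranked 1 from the top among 5432 genes taken at their brightest probe set.

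A dimmer CDH11 probe set gave 23.2 and 27.9 in the stage labelled primordial, 353.3 and 227.4 in the middle stage and 167.3 and 219.6 in the last stage. It shared the low start but not the order of the later stages: both last arrays were below both middle arrays, with a difference of -0.53 ± 0.33. The third probe set had 3.0 and 2.6, then 110.0 and 28.0, then 75.9 and 80.4 in the same order of stages, so its middle and last arrays overlapped. The CDH11 probe sets therefore disagreed on whether the last stage was above the middle stage, and none of the 3 placed the gap beyond 2 SE.

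FAP, fibroblast activation protein, is a serine protease on the surface of activated fibroblasts that cuts after proline. It had 1 probe set, with 49.6 and 38.4 in the stage labelled primordial, 1219.1 and 679.8 in the middle stage and 1313.0 and 1205.5 in the last stage. The middle and last arrays overlapped, and both lay far above the arrays labelled primordial. FAP was higher in the middle stage than in the stage labelled primordial by 3.96 ± 0.29, and the last stage differed from the middle stage by 0.46 ± 0.29. That last difference rests on the middle arrays, since it was 0.87 without middle replicate 1 and 0.04 without middle replicate 2.

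PTN, pleiotrophin, is a heparin-binding growth factor that acts through the receptor phosphatase PTPRZ1 and through syndecans. Its brighter probe set had 51.8 and 39.6 in the stage labelled primordial, 2729.7 and 1410.5 in the middle stage and 1275.0 and 1694.8 in the last stage. The middle and last stages overlapped here too, and the highest value was a middle array. PTN was higher in the middle stage than in the stage labelled primordial by 5.01 ± 0.32, and the last stage differed from the middle stage by -0.41 ± 0.32. Without middle replicate 1 the sign of that small difference changed, to 0.06, and without middle replicate 2 it was -0.89. The dim second probe set of PTN, below the filter, was at 2.3 and 3.0, then 71.9 and 31.0, then 3.2 and 14.1 through the stages. Both its last arrays were below both middle arrays, with a difference of -1.42 ± 0.42, so it did not level off. That difference was not called in a fit without the filter.

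SFRP1 is a secreted protein that binds Wnt ligands and modulates their signalling. Its brighter probe set had 46.2 and 61.1 in the stage labelled primordial, 1579.2 and 982.9 in the middle stage and 2593.9 and 3229.8 in the last stage. Its dimmer probe set had 50.8 and 76.7, then 793.5 and 552.1, then 2761.7 and 2710.7 in the same order. Both ordered the stages alike, with no overlap between any pair of stages. The last stage exceeded the middle stage by 1.21 ± 0.27 on the brighter and by 2.02 ± 0.26 on the dimmer probe set. Against the stage labelled primordial the last stage was higher by 5.39 ± 0.27 on the brighter and 5.13 ± 0.26 on the dimmer.

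ADAMDEC1 is a secreted metalloproteinase-like protein of the ADAM family, known in humans from macrophages, dendritic cells and fibroblasts of the gut. It had 57.1 and 136.1 in the stage labelled primordial, 1040.7 and 710.0 in the middle stage and 1770.3 and 4214.1 in the last stage. The stages did not overlap, but the last arrays differed 2.38-fold from each other. ADAMDEC1 was higher in the middle stage than in the stage labelled primordial by 3.05 ± 0.44 and higher in the last stage than in the middle stage by 1.65 ± 0.44.

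A2M, alpha-2-macroglobulin, is a large secreted inhibitor that traps proteases of many classes. Its bright probe set had 193.1 and 351.6 in the stage labelled primordial, 1668.9 and 1506.0 in the middle stage and 4169.9 and 10031.5 in the last stage. The stages did not overlap, and the last arrays again differed, 2.41-fold. A2M was higher in the middle stage than in the stage labelled primordial by 2.53 ± 0.39 and higher in the last stage than in the middle stage by 2.02 ± 0.39. The other A2M probe sets were dim, with signals of 12.4 to 75.7 over all arrays, and differed between the last and middle stages by -0.06 ± 0.45 and 0.05 ± 0.38. They did not show the last-stage increase of the bright probe set. In the middle stage over the stage labelled primordial they differed by 0.67 ± 0.45 and 1.15 ± 0.38, less than the bright probe set. Neither difference was called in a fit without the filter.

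The last-stage excess of ADAMDEC1 and A2M varied with the array. Without last replicate 2 the last stage exceeded the middle stage by 1.03 for ADAMDEC1 and 1.39 for A2M, and without last replicate 1 by 2.27 and 2.65. For SFRP1 the lowest and highest values over all alternatives were 0.87 and 1.54 on the brighter probe set and 1.77 and 2.28 on the dimmer.

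**Figure D2:**
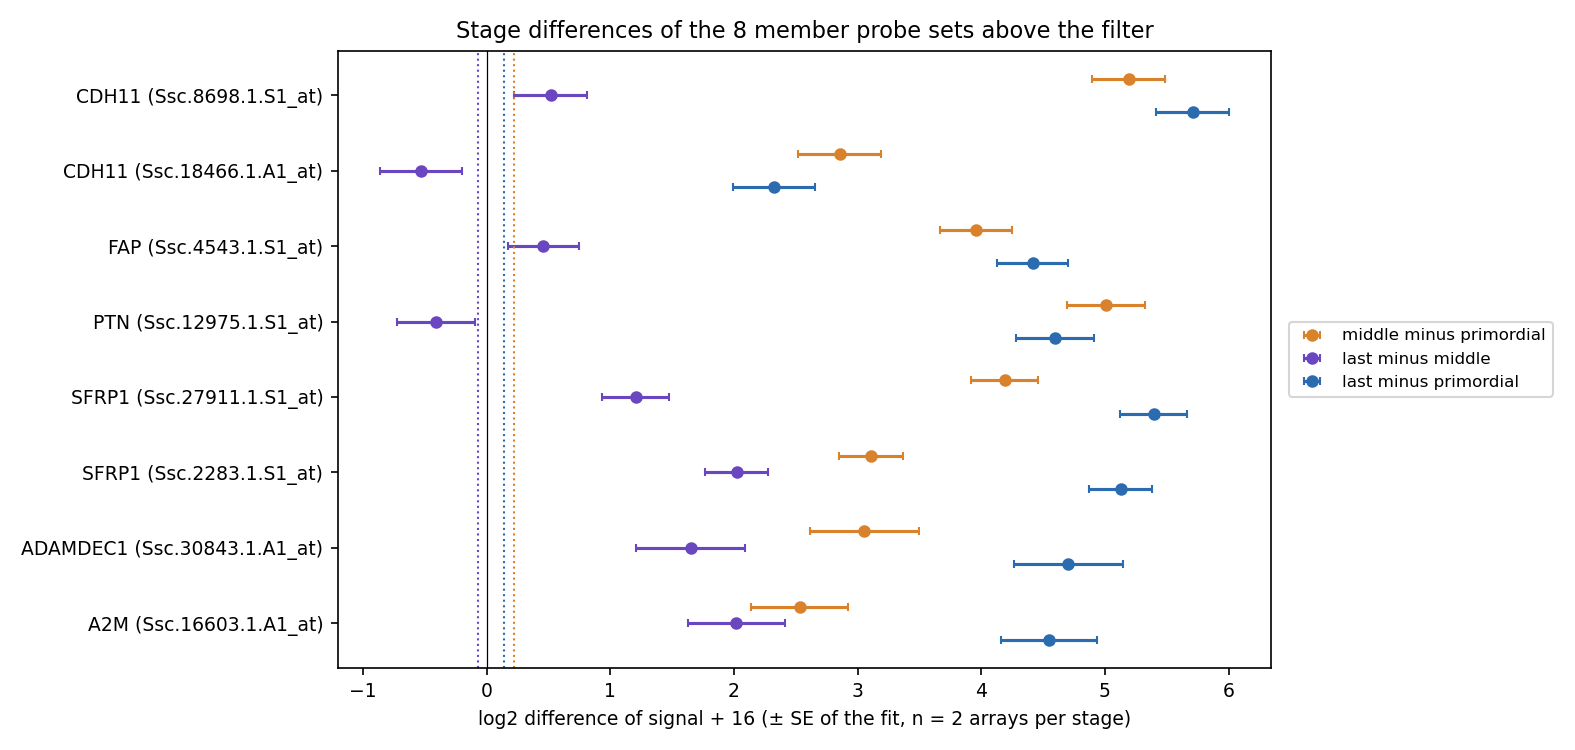
Differences between stages for the 8 probe sets that passed the filter, on the log2(signal + 16) scale, with bars for ± SE (n = 2 arrays per stage) and dotted lines at the median of all tested probe sets for each comparison. The last minus middle points of CDH11, FAP and PTN lie within 0.53 of 0, and those of SFRP1, ADAMDEC1 and A2M lie between 1.21 and 2.02.

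A filter that dropped the dimmest 40% of probe sets (mean signal under 91.3) kept 8 of the 12 probe sets, at least 1 for each of the 6 genes. For 6 of these 8 the mean in the stage labelled primordial was itself under that limit, so they passed only through the later stages. In the linear model, with limma's moderated test at a Benjamini-Hochberg adjusted p under 0.05, all 8 that passed were called higher in the middle stage than in the stage labelled primordial, as were 29.7% of the 14399 probe sets tested. All 8 were also called higher in the last stage than in the stage labelled primordial, against 19.8% of those tested. In the last stage against the middle stage 4 of the 8 were called higher, against 7.29%, and 0 were called lower, against 9.94%. These 4 were both SFRP1 probe sets, ADAMDEC1 and A2M. The counts follow from how the genes were chosen, and nothing is read from them. The count of 4 dropped to 2 without middle replicate 1, 1 without middle replicate 2 and 2 without last replicate 2, and the dimmer SFRP1 probe set was called in each of these. It was 3 without the filter on low signals and 3 with eBayes without intensity trend, where ADAMDEC1 was not called.

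Without any filter, all 12 probe sets were higher on both middle arrays than on both arrays labelled primordial, as were 43.1% of all 23999 probe sets. Of the 12, 11 were higher on both last arrays than on both arrays labelled primordial, against 34.5% of all, and the other was a dim A2M probe set. Between the last and middle stages 5 were higher without overlap, against 20.0% of all, 2 were lower, against 33.3%, and 5 overlapped. The comparisons share arrays, so they are not independent of each other.

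The ranks of the 6 genes show how far the order differs between comparisons. Among 5432 genes at their brightest probe set, ordered from the highest difference of the last stage over the stage labelled primordial, CDH11 was 1, SFRP1 3, ADAMDEC1 6, PTN 9, A2M 10 and FAP 11. For the middle stage over the stage labelled primordial the ranks were 8 for CDH11, 10 for PTN, 24 for SFRP1, 30 for FAP, 61 for ADAMDEC1 and 103 for A2M. For the last stage over the middle stage A2M was 92, ADAMDEC1 154, SFRP1 273, CDH11 954, FAP 1107 and PTN 4385.

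The 2 arrays of the middle stage differed for these genes in 1 direction. All 8 probe sets that passed the filter were brighter on middle replicate 1 than on middle replicate 2, as were 49.7% of all probe sets tested. The median gap was 0.64 for the 8, against -0.003 for all tested. The gap of PTN, 0.94, was exceeded in size by 3.45% of tested probe sets and that of FAP, 0.83, by 5.18%. The list of stromal fibroblast genes described below had 14 of 15 genes brighter on middle replicate 1, with a median gap of 0.30.

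On the last arrays the large gaps were those of ADAMDEC1 and A2M. Replicate 1 minus replicate 2 was -1.24 for ADAMDEC1 and -1.26 for A2M, gaps that 3.04% and 2.90% of tested probe sets exceeded in size, whereas it was -0.05 for the brightest CDH11 probe set, 0.12 for FAP and 0.03 for the dimmer SFRP1 probe set. The summed signal of 9 leukocyte genes was also higher on last replicate 2, at 4204.9 against 1659.6 on last replicate 1. It was far higher, at 19132.6 and 17646.6, on the arrays labelled primordial, where ADAMDEC1 and A2M were low, and 1476.9 and 1106.4 on the middle arrays. On the arrays labelled primordial the gap was -1.06 for ADAMDEC1 and -0.81 for A2M, again brighter on replicate 2, where the leukocyte sum was lower. The part of leukocytes in the ADAMDEC1 and A2M values was not tested.

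**Figure D3:**
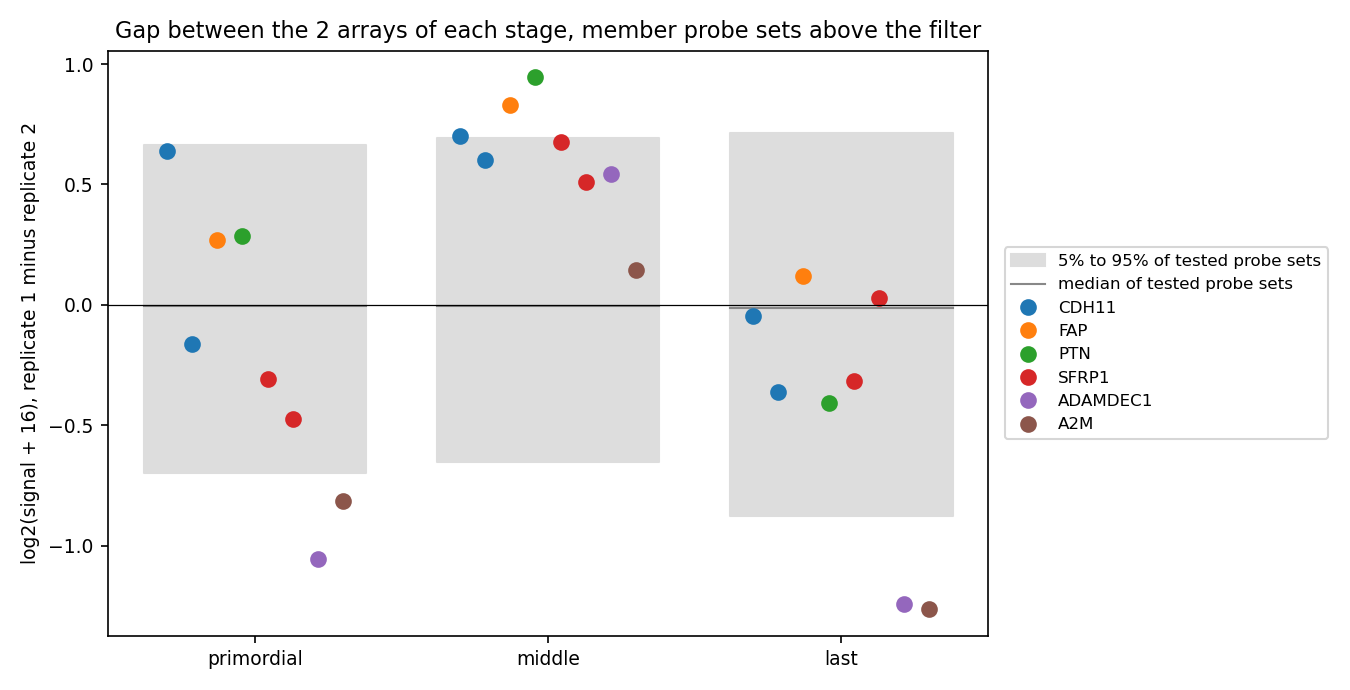
Gap between replicate 1 and replicate 2 of each stage, in log2(signal + 16), for the 8 member probe sets that passed the filter (coloured points) over the range from the lowest 5% to the highest 5% of all tested probe sets (grey band). The points of the middle stage all lie above 0, and ADAMDEC1 and A2M lie below the band in the last stage.

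Profiles were compared by the root mean square distance between log2(signal + 16) values over the 6 arrays, each centred on its own mean, so that a small distance means a like size and order of change. ADAMDEC1 and A2M were each other's nearest gene at 0.26. Nearest to SFRP1 was COL6A3, a chain of collagen VI, at 0.20, with 89.7 and 148.0 in the stage labelled primordial, 2371.7 and 1423.7 in the middle stage and 4859.3 and 4834.7 in the last stage.

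Nearest to FAP were FGF13, an intracellular member of the fibroblast growth factor family, at 0.20, FAM162B at 0.26 and CALD1, the actin-binding protein caldesmon, at 0.29. Nearest to PTN were the small proteoglycan DCN at 0.31, FAP at 0.49 and the chemokine CXCL12 at 0.51. DCN had 260.0 and 322.1 in the stage labelled primordial, 15364.3 and 9867.2 in the middle stage and 8430.4 and 6981.5 in the last stage, with both last arrays below both middle arrays. CDH11 had the brighter SFRP1 probe set at 0.51, PTN at 0.51 and DCN at 0.61. A2M had, after ADAMDEC1, the dimmer SFRP1 probe set at 0.48 and the growth factor IGF2 at 0.55, and ADAMDEC1 had the dimmer SFRP1 probe set at 0.45 and COL6A3 at 0.50. The brighter SFRP1 probe set was farther from both, at 0.76 from A2M and 0.58 from ADAMDEC1. Within the set, the distance between the 2 CDH11 probe sets that passed, 1.44, was larger than that between any pair of probe sets of different genes, and the SFRP1 probe sets were 0.48 apart.

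Most markers of the stroma moved in the same direction as these genes. A list of stromal fibroblast genes that holds none of the 6 had 15 of 18 genes tested, at 1 probe set per gene. Like the lists below, it was chosen with earlier results of these data known, so its counts are given as description. In the middle stage 10 were higher than in the stage labelled primordial and 0 lower, where 22.9% of all 5432 genes were higher and 22.5% lower, and the median difference was 2.01 against 0.06 for all genes. In the last stage 13 were higher than in the stage labelled primordial and 0 lower, against 17.2% and 15.8% of all genes, with a median of 2.18 against 0.06. In the last stage against the middle stage 6 were higher and 1 lower, against 8.80% and 7.23% of all genes, with a median of 0.67 against 0.02. With each array centred, 9 were higher and 2 lower in the middle stage and 12 higher and 1 lower in the last stage than in the stage labelled primordial.

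DCN, which binds collagen fibrils, rose by 5.33 ± 0.23 in the middle stage over the stage labelled primordial (limma adjusted p = 1.7e-06), COL6A3 by 3.82 ± 0.29 (adjusted p = 2.02e-05) and FBN1, fibrillin of elastic microfibrils, by 2.35 ± 0.23 (adjusted p = 6.56e-05). Between the last and middle stages the matrix genes FBLN1 and POSTN rose by 1.62 ± 0.23 and 1.65 ± 0.28 (limma adjusted p = 0.00162 and 0.00426). LUM, a keratan sulfate proteoglycan, rose by 2.24 ± 0.42 (adjusted p = 0.00735), with last arrays at 3079.1 and 1043.5. The LUM call was lost without middle replicate 1 and without middle replicate 2 (adjusted p = 0.0683 and 0.0682). VIM, the intermediate filament gene that stromal and granulosa cells both express, did not pass in any pairwise comparison, with signals from 21605.5 to 28794.0 over the 6 arrays. In the middle stage over the stage labelled primordial 5 genes of the list were not called. These were VIM at -0.04 ± 0.13, FBLN1 at -0.48 ± 0.23, POSTN at 0.53 ± 0.28 and the collagen genes COL3A1 at -0.84 ± 0.68 and COL1A2 at 0.66 ± 0.25. The summed signal of the list was 34795.0 and 39507.0 in the stage labelled primordial, 68254.2 and 55292.5 in the middle stage and 70420.3 and 69680.3 in the last stage. VIM made up most of the sum in the stage labelled primordial, with 24833.8 and 28794.0, so the sum is not a measure of stromal cells alone.

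Other cell types also differed between the stages. Summed over 8 smooth muscle and pericyte genes the signal was 6618.0 and 6078.8 in the stage labelled primordial, 8653.0 and 9988.4 in the middle stage and 30507.3 and 30344.0 in the last stage. For 6 theca genes it was 6389.6 and 6021.2, then 3390.2 and 4699.0, then 19792.7 and 22867.8, and for 9 endothelial genes 1950.6 and 2119.9, then 1717.9 and 2151.1, then 3941.9 and 4593.8. All 3 sums were highest in the last stage, and that of the theca list was lowest in the middle stage. The low theca sum there was that of CYP11A1, which starts steroid synthesis, at 256.2 and 1090.2 in the middle stage against 4673.4 and 4310.7 in the stage labelled primordial, whereas 3 of the 6 theca genes were called higher and 1 lower in that comparison. Of the leukocyte genes all 7 tested were lower in the middle stage and in the last stage than in the stage labelled primordial. The sum of 11 granulosa genes was 43472.1 and 57208.2 in the stage labelled primordial, 28256.1 and 31178.6 in the middle stage and 58135.6 and 54614.1 in the last stage. That of 5 surface epithelium genes was highest in the middle stage, at 481.5 and 352.6, then 1351.2 and 1384.6, then 221.3 and 239.8. The 3′ excess of the actin control probe sets over the 5′ ones, a sign of RNA quality, was 3.56 and 3.21 (log2) in the stage labelled primordial, 4.98 and 4.21 in the middle stage and 3.90 and 3.57 in the last stage. For GAPDH it was 3.43 and 2.69, then 3.29 and 2.79, then 1.90 and 1.86, lowest in the last stage. For the EF1A controls it was 1.02 and 0.67, then 1.34 and 0.87, then 0.83 and 0.70. There the last arrays overlapped the arrays labelled primordial, so the controls differed on whether the last stage stood apart. The part of these differences in the levels of the 6 genes was not tested.

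**Figure D4:**
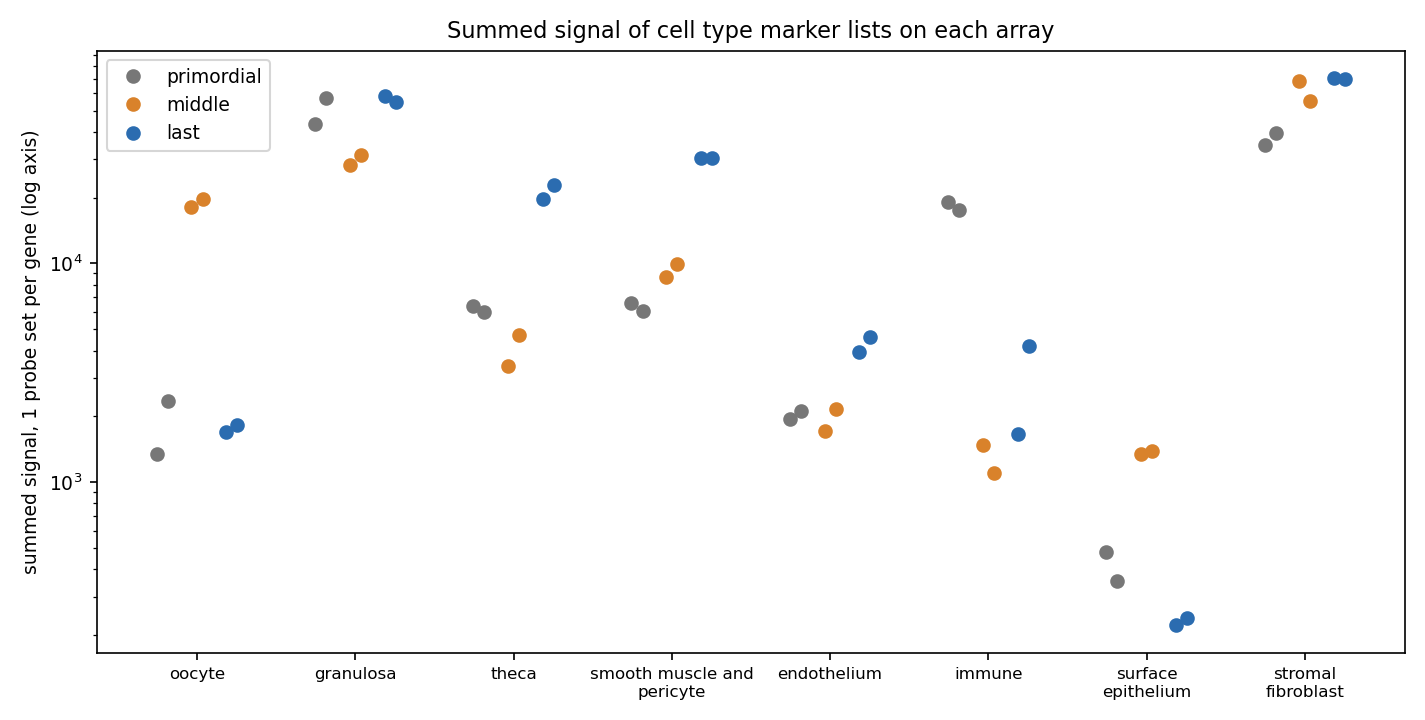
Summed signal of cell type marker lists on each array, on a log axis, with 1 probe set per gene and the stages from left to right within each list. The sum of the stromal fibroblast list is lower on the arrays labelled primordial, where VIM made up most of it, than on the others. The leukocyte sum is highest on the arrays labelled primordial, and the theca and smooth muscle sums are highest in the last stage.

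Other genes of the adhesion, growth factor, Wnt and protease families went in both directions, as did genes in general. In the middle stage against the stage labelled primordial, 22.9% of all 5432 genes were higher and 22.5% lower. These shares were 8.80% and 7.23% in the last stage against the middle stage. They were 17.2% and 15.8% in the last stage against the stage labelled primordial. The list counts below are to be read beside these shares. Centring each array on its median moves the median of all genes in the middle stage over the stage labelled primordial to -0.35, against 0.06 with the values as deposited. The cadherin and catenin list had 7 of 32 genes tested. Against the stage labelled primordial 3 rose and 1 fell in the middle stage, with a median of 0.63, and with centred arrays 1 rose and 2 fell. The epithelial cadherin CDH1 had 184.7 and 144.0 in the stage labelled primordial, 399.7 and 371.3 in the middle stage and 63.8 and 98.6 in the last stage, and fell by 2.07 ± 0.29 in the last stage against the middle stage (limma adjusted p = 0.00162). CDH5, the cadherin of endothelium, had 98.8 and 187.7, then 235.8 and 206.2, then 812.2 and 1079.1, and rose by 2.01 ± 0.31 in that comparison (adjusted p = 0.00249). CDH5 was without overlap between stages and highest in the last stage, as was the brightest CDH11 probe set, while CDH1 was lowest in the last stage. CTNNB1, beta-catenin, binds the cadherin tail and also carries Wnt signals. Only its brightest of 5 tested probe sets is given here. That probe set rose by 0.81 ± 0.14 in the middle stage over the stage labelled primordial (adjusted p = 0.00136). In at least 1 comparison, CTNNB1 probe sets were called in opposite directions. With gene means over probe sets, 2 genes of the list rose and 1 fell in the middle stage, with a median of 0.09. Over the 3 comparisons the list had 9 calls, and 5 without primordial replicate 2.

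In the pleiotrophin and midkine list, which holds the relative MDK and possible receptors, 8 of 17 genes were tested, and 1 rose and 6 fell in the middle stage against the stage labelled primordial, with a median of -1.12. MDK, midkine, the other member of the PTN family, had 2664.6 and 3104.5 in the stage labelled primordial, 784.3 and 831.8 in the middle stage and 4732.0 and 4872.4 in the last stage. It was lowest in the middle stage, where PTN was high. MDK fell by 1.81 ± 0.17 in the middle stage against the stage labelled primordial (limma adjusted p = 6.21e-05) and rose by 2.55 ± 0.17 in the last stage against the middle stage (adjusted p = 3.38e-05), and a second MDK probe set gave -1.98 ± 0.18 and 2.82 ± 0.18. The syndecan SDC2, a heparan sulfate proteoglycan, had 5085.3 and 4143.8, then 1457.6 and 1667.5, then 4706.6 and 5389.8, and so shared the low middle stage of MDK. It fell by 1.55 ± 0.18 in the middle stage (adjusted p = 0.000173) and rose by 1.68 ± 0.18 in the last stage (adjusted p = 0.000359). ITGB3, an integrin subunit, fell by 2.41 ± 0.28 in the last stage against the middle stage (adjusted p = 0.000546). Over the 3 comparisons the list had 16 calls, and 9 without middle replicate 2.

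Of the Wnt list 14 of 53 genes were tested, and in the middle stage 5 rose and 4 fell against the stage labelled primordial, with a median of 0.25, which turned to -0.16 with each array centred. No probe set used here carries the symbol of SFRP2, SFRP4 or FRZB, the relatives of SFRP1. Among the Frizzled receptors, which bind Wnt ligands, FZD2 rose by 1.48 ± 0.25 in the middle stage (limma adjusted p = 0.00135), while FZD4 fell by 1.86 ± 0.22 (adjusted p = 0.000177) and FZD5 by 2.35 ± 0.20 (adjusted p = 3.28e-05). FZD5 rose by 2.86 ± 0.20 in the last stage against the middle stage (adjusted p = 3.55e-05), with 10596.9 and 8008.4 in the last stage and 1428.5 and 1104.9 in the middle stage. It was the only 1 of the 14 called in that comparison with the values as deposited, where 8.80% of all genes were higher and 7.23% lower. With each array centred, 2 of the 14 were called.

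In the platelet-derived growth factor list 13 of 31 genes were tested, with 3 higher and 6 lower in the middle stage than in the stage labelled primordial and a median of -0.16. PDGFRB, the beta receptor, had 944.1 and 821.6 in the stage labelled primordial, 1582.0 and 1361.9 in the middle stage and 2258.1 and 2512.0 in the last stage, without overlap. It rose by 1.42 ± 0.19 in the last stage over the stage labelled primordial (limma adjusted p = 0.000783), a fold of 2.67. Its rise over the middle stage, 0.69 ± 0.19 (adjusted p = 0.0355), did not pass in several alternatives, where the adjusted p reached 0.142. A dim second PDGFRB probe set, below the filter, had 105.0 and 16.6, then 41.6 and 27.6, then 32.9 and 22.4, and did not show this rise. PDGFRL, a gene related to the receptors, rose by 2.58 ± 0.24 in the middle stage over the stage labelled primordial (adjusted p = 5.98e-05), and its last stage differed from the middle stage by 0.01 ± 0.24. The adaptor GRB2, which joins receptors to Ras, fell by 2.09 ± 0.22 in the middle stage against the stage labelled primordial (adjusted p = 0.000117). The list had 17 calls over the 3 comparisons, 9 without primordial replicate 1, 9 without primordial replicate 2 and 11 without middle replicate 1.

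The list of FAP and ADAM relatives had 7 of 28 genes tested, with 0 higher and 3 lower in the middle stage than in the stage labelled primordial and a median of -0.42. DPP4, the closest relative of FAP, had 101.8 and 99.8, then 84.6 and 61.8, then 132.5 and 213.0, and did not pass in any comparison (limma adjusted p = 0.365 for the middle stage against the stage labelled primordial, at -0.40 ± 0.34). ADAM28, a membrane protease whose gene lies beside ADAMDEC1 in humans, fell by 2.09 ± 0.26 in the last stage against the stage labelled primordial (adjusted p = 0.00058). ADAMTS1, a secreted matrix protease of the ovulating follicle, fell by 1.49 ± 0.18 in the middle stage (adjusted p = 0.000215) and rose by 2.36 ± 0.18 in the last stage against the middle stage (adjusted p = 5.09e-05). The list had 8 calls over the 3 comparisons, 4 with the dimmest 60% of probe sets left out, 5 without primordial replicate 1 and 5 without primordial replicate 2.

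Of protease inhibitors and relatives of A2M 14 of 25 were tested, with 6 higher and 4 lower in the middle stage than in the stage labelled primordial and a median of 0.06. With each array centred, 2 were higher and 6 lower, with a median of -0.36. TIMP2, an inhibitor of matrix metalloproteinases, fell by 2.30 ± 0.20 in that comparison (limma adjusted p = 4.15e-05) and rose by 1.33 ± 0.20 in the last stage against the middle stage (adjusted p = 0.00231). ITIH3, a heavy chain of the inter-alpha-trypsin inhibitor, rose by 2.11 ± 0.24 in the middle stage (adjusted p = 0.000142) and fell by 1.43 ± 0.24 in the last stage against it (adjusted p = 0.00382). SERPINF1, an anti-angiogenic serpin, rose by 1.59 ± 0.24 in the last stage against the middle stage (adjusted p = 0.00249). No probe set used here carries the symbol of LRP1, the receptor that clears A2M. The list had 19 calls over the 3 comparisons, and 11 without middle replicate 1.

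**Figure D5:**
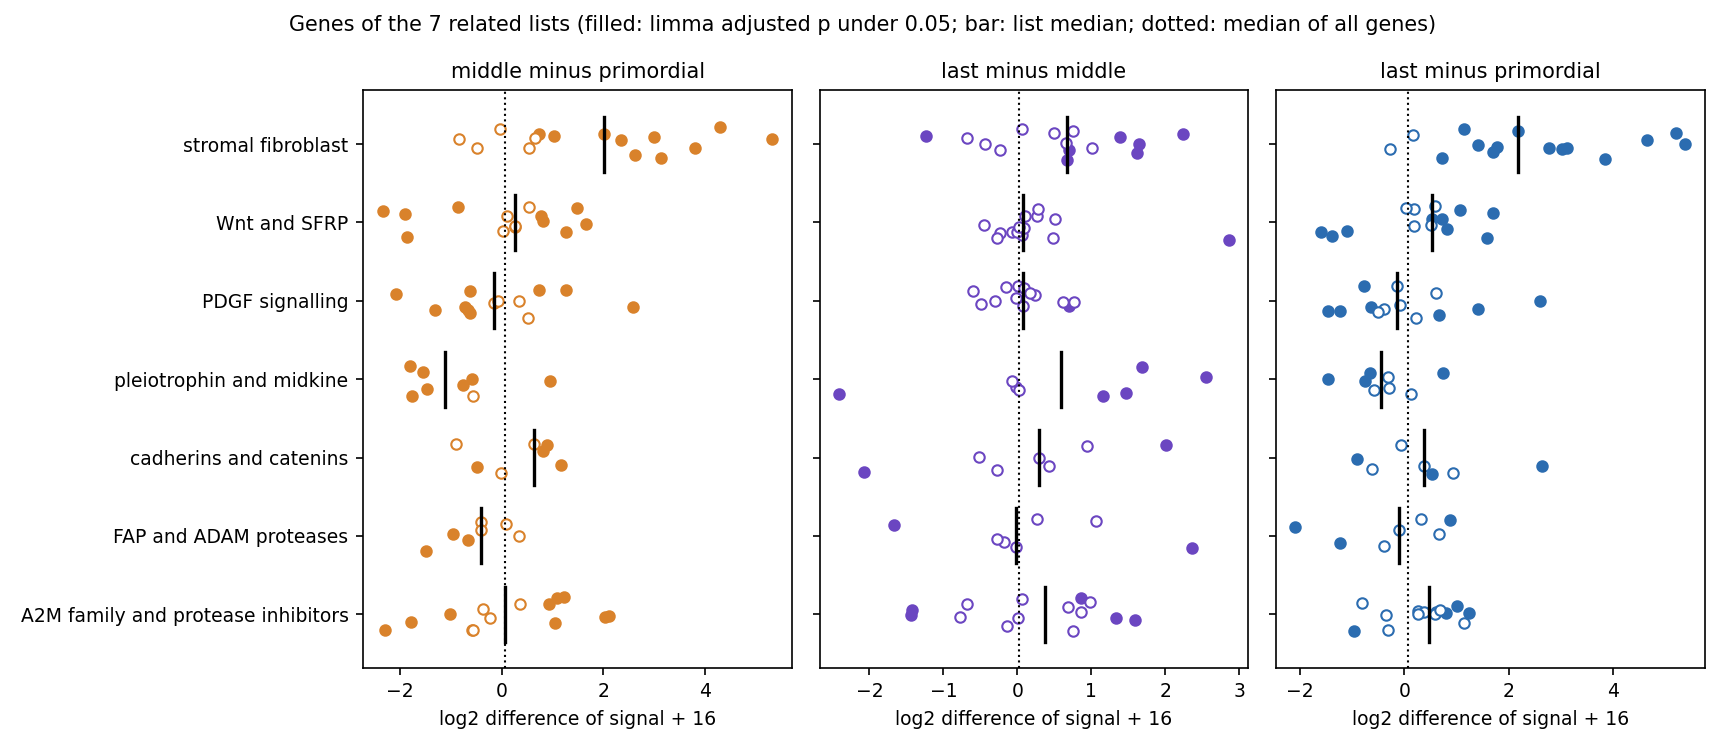
Differences of the genes of 7 related lists in the 3 pairwise comparisons, on the log2(signal + 16) scale, filled where limma's adjusted p was under 0.05, with a bar at the median of each list and a dotted line at the median of all genes. The median of the stromal fibroblast list, 2.01 in the middle stage and 2.18 in the last stage over the stage labelled primordial, lies to the right of the dotted line, while single genes such as VIM lie to its left.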

How the data were processed

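Per the labels' protocols, Trizol RNA was made into biotinylated cRNA, and per the submitters' processing notes the software GCOS gave the values, with settings not given in the sources used here. Each value deposited by the authors is a linear intensity of a probe set, and the values have a like trimmed mean on every array. With 124 control probe sets left out, log2(signal + 16) was computed and the dimmest 40% of probe sets by mean signal were dropped. limma 3.58.1 in R 4.3.3 (lmFit, eBayes with trend, two-sided, Benjamini-Hochberg, threshold 0.05) was fitted to all 6 arrays and 14399 probe sets, and checked on simulated data. Listed genes were taken at their brightest probe set. The text could name all members, their 3 nearest profiles, up to 3 called genes per list and comparison by p, and 8 relatives. VIM, COL3A1 and COL1A2 were named after their values were seen. DPPA5, PADI6, GDF9, KIT and CYP11A1, from the cell type marker lists, were also named outside this rule. Members and lists were chosen with earlier results of these data known. The alternatives were 2 other pseudocounts, 2 filters, 2 normalizations, eBayes without trend, a replicate block, fits of 4 arrays, gene means over probe sets and leaving out each array. Python 3.11.15, pandas 2.3.3 and matplotlib 3.10.9 drew the figures.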

Additional observations from a re-analysis of the deposited data

How the results depend on the processing

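All 8 member probe sets that passed the filter stayed higher in the middle and last stages than in the stage labelled primordial under each alternative that kept them, and the last-minus-middle difference of PTN, which was not called, changed sign without middle replicate 1. Over all probe sets, 6821 were called in the middle stage against the stage labelled primordial, and 4356 to 7189 when 1 array was left out, the lowest without middle replicate 1. In the last stage against the middle stage 2481 were called, and 727 to 2172 with 1 array left out, namely 727 without middle replicate 1 and 1440 without middle replicate 2. In the last stage against the stage labelled primordial 4786 were called, and 2730 to 4297 with 1 array left out, namely 2900 without primordial replicate 1 and 2730 without primordial replicate 2. Leaving out 1 array gave 11 to 17 calls over the 3 comparisons in the list of A2M relatives, 5 to 8 among cadherins and catenins, 5 to 8 among FAP and ADAM relatives (4 with the dimmest 60% left out), 9 to 15 in the platelet-derived growth factor list and 9 to 15 in the pleiotrophin and midkine list. A fit on fewer arrays has fewer degrees of freedom, and any other cause was not tested. After median centring of the arrays, 36.6% of the calls in the middle stage against the stage labelled primordial were higher, against 62.7% as deposited, and in the last stage against the stage labelled primordial 39.0%, against 59.7%. In the last stage against the middle stage 62.9% were higher, against 42.3%. Single named genes were not followed in the alternative of gene means over probe sets. In the other alternatives, of 57 results for genes named from lists, 14 lost their call at least once and 0 changed sign. The labels do not say that replicate numbers pair the arrays, and deviations of same-numbered arrays correlated at 0.0593, -0.0476 and 0.0318 between stages. With 2 arrays per stage these values do not settle whether same-numbered arrays share an animal or day. With a replicate block 6601, 2279 and 4532 probe sets were called in the order of comparisons above. Signals near the pseudocount of 16, 12.8% to 18.0% of probe sets per array, limit the folds of dim transcripts.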
